A study of Bos taurus with 24 samples.

Results

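Cumulus cells and mural granulosa cells taken from early antral follicles were compared across the genes of a cow (Bos taurus) RNA-sequencing series. The comparison takes 10 of the 24 libraries of the series by the names of their columns, 5 of cumulus cells (early_CC) and 5 of mural granulosa cells (early_MGC), and 14298 genes had enough reads to be tested. The other 14 libraries are 4 of granulosa cells from secondary follicles and 5 each of cumulus and mural cells from late antral follicles (late_CC and late_MGC). The study asks at which stages granulosa cells can grow transzonal projections, the thin processes through which they reach the oocyte, and whether expression changes at the same stages. No group carries a treatment, genotype or strain in the labels, which describe total RNA turned into cDNA by template switching from very little input. The labels state neither the age of the animals, the size of the follicles, nor whether the replicates came from separate animals, pools or cultures, and a label field for the cell line holds only the names of the cell types, which does not settle it. Each p-value therefore measures the spread between these libraries, which may be technical.

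An antral follicle holds 2 populations of granulosa cells. Cumulus cells sit next to the oocyte, are coupled to it by gap junctions on their projections, receive its growth factors GDF9 and BMP15, and supply it with pyruvate and other products of glycolysis, a pathway the oocyte itself runs poorly. Mural cells line the follicle wall on the basement membrane, closest to the vessels of the theca, and become the main site of steroid and inhibin output as the follicle grows.

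Total counts were 19596862 to 31762400 in early_CC and 8379801 to 21455169 in early_MGC, with early_MGC 4 the shallowest. Genes of the mitochondrial chromosome took 5.45% to 7.24% of the counts in early_CC and 12.48% to 36.5% in early_MGC, so the groups did not overlap in this share. The highest share was again that of early_MGC 4, whose mean correlation with its own group was 0.9205 against 0.946 to 0.9497 for the other early_MGC libraries and 0.959 to 0.967 for early_CC. The leading principal component of the 10 libraries held 38.61% of the variance and placed all early_CC libraries between 30.6 and 39.7 and the early_MGC libraries between -79.7 and -11.7. What part the mitochondrial share, depth or early_MGC 4 has in the results was not tested as a cause, but the comparison was repeated without that library and without the mitochondrial genes. Replicates differed beyond sampling noise, with a chi-square per degree of freedom of at least 32.9 in early_CC and 38.7 in early_MGC.

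**Figure D1:**
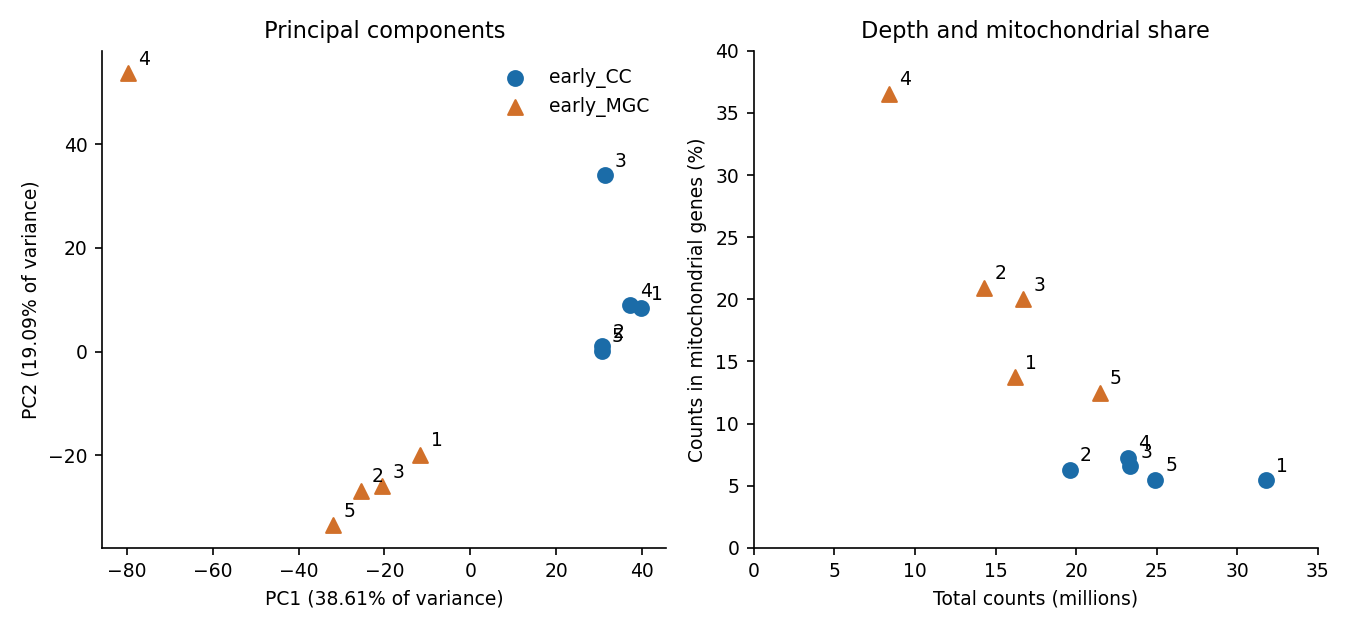
Left, each library's position on the 2 leading principal components (axes give the share of variance); right, the share of counts in mitochondrial genes (%) against total counts. Circles are early_CC, triangles early_MGC and digits are replicate numbers. The early_CC libraries lie together at 5.45% to 7.24% mitochondrial counts, and early_MGC 4 lies apart at 36.5%.

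Genes that mark granulosa cells stood at unequal levels in both groups, with FSHR and AMH high and the lineage factor FOXL2 low. The receptor for follicle-stimulating hormone, FSHR, stood at 424, 254, 349, 366 and 292 CPM in early_CC. FSHR gave 286, 200.5, 237, 212 and 366 CPM in early_MGC, values that overlapped. Anti-Müllerian hormone, AMH, averaged 333.9 CPM in early_CC and 184.8 in early_MGC. The aromatase CYP19A1 averaged 11.86 and 14.04 CPM, and FOXL2 1.77 and 0.574 CPM, in the same order. Markers of other cell types were low for the oocyte, endothelium and blood. The 14 of 18 oocyte markers with a symbol match summed to 0.862 to 2.91 CPM (counts scaled to a library total of 1000000) in early_CC and 0.909 to 2.59 in early_MGC, and BMP15, DDX4, FIGLA, NPM2, KPNA7 and DPPA3 had 0 counts in all 10 libraries. The 17 of 18 theca and stroma markers with a match summed to 249 to 816 CPM in early_CC and 292 to 718 in early_MGC. CYP17A1, the theca enzyme of androgen synthesis, and PDGFRB had 0 counts. Other members of that list were present in all 10 libraries. INSL3 was at means of 94.2 CPM in early_CC and 105.6 in early_MGC, and DCN at 51.0 and 55.5. MYH11 and LUM are given below. The 12 endothelial markers summed to 11.4 to 26.95 CPM against 25.2 to 46.5, with CDH5, TIE1 and EGFL7 at 0 counts, and the 11 of 12 matched blood cell markers to 1.38 to 2.74 against 1.86 to 9.79, with CD163 and HBB at 0. In bulk libraries such as these, fewer cells of a type and less RNA per cell cannot be told apart.

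edgeR's quasi-likelihood test called 1871 of the 14298 genes at a Benjamini-Hochberg adjusted p under 0.05, or 13.1%. Of these, 958 (6.7% of the genes tested) were higher in early_CC and 913 (6.39%) higher in early_MGC, and 467 and 532 differed at least 2-fold. The median log2 fold change over all genes was 0.007, where values above 0 mean higher in early_CC. The CPM of the 5 and 5 libraries did not overlap at 2286 genes (16%), 1595 with early_CC above and 691 with early_MGC above. After scaling by the factors of edgeR's trimmed mean of M-values (TMM), which adjust for library composition, these became 1272 and 1018. Without the mitochondrial genes 1853 genes were called, 1822 of them among the 1871, and without early_MGC 4 the count was 1268, of which 1205 were among the 1871. It was lowest without early_MGC 5, at 1222.

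The genes with the largest rises in early_CC included NDUFA4L2, WFDC2, GUCA1A and ACTA1, which had the highest cumulus levels among them. These 12 genes were chosen for the size of their change among called genes whose CPM did not overlap between the groups, so neither the call nor the lack of overlap is separate support. NDUFA4L2, which low oxygen induces and which restrains mitochondrial respiration (ENSBTAG00000031503, chromosome 5, 56205859 to 56208161; positions throughout are those of ARS-UCD1.2), was counted at 132, 101, 139, 39.1 and 38.5 CPM in early_CC 1 to 5. NDUFA4L2 gave 2.59, 0.559, 1.5, 0.955 and 0.0932 CPM in early_MGC 1 to 5. Its lowest cumulus library held 14.9 times the CPM of its highest mural library, and the log2 fold change was 6.18 ± 1.04, adjusted p = 0.00099. The secreted protease inhibitor family member WFDC2 (ENSBTAG00000013928, chromosome 13, 74360635 to 74367977) stood at 237, 67.2, 312, 44 and 36.6 CPM in early_CC. WFDC2 gave 27, 4.69, 4.55, 2.39 and 0.0932 CPM in early_MGC. The mural value nearest to the cumulus range was that of early_MGC 1, and the log2 fold change was 4.05 ± 0.99, adjusted p = 0.011, or 5.47 without that library. GUCA1A, which activates membrane guanylate cyclases (ENSBTAG00000051956, chromosome 23, 15892199 to 15899850), stood at 112, 127, 151, 188 and 70.3 CPM in early_CC. GUCA1A gave 20.2, 9.93, 17, 3.46 and 3.31 CPM in early_MGC, a log2 fold change of 3.47 ± 0.79, adjusted p = 0.0068. ACTA1, the actin of skeletal muscle (ENSBTAG00000046332, chromosome 28, 1400372 to 1403383), gave 129, 66.4, 53.5, 201 and 83.1 CPM in early_CC. ACTA1 gave 11.6, 13.7, 8.21, 0.119 and 15.7 CPM in early_MGC, with the lowest count in early_MGC 4 (log2 fold change 3.38 ± 0.57, adjusted p = 0.00086).

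The lactate exporter SLC16A3 and the formin FMNL1, which lengthens actin filaments, had cumulus values in a narrow range. SLC16A3 (ENSBTAG00000017461, chromosome 19, 50634317 to 50642204) was at 46.3 ± 9.59 against 3.63 ± 2.46 CPM (mean ± SD, n = 5 and 5; log2 fold change 3.55 ± 0.69, adjusted p = 0.0025) and FMNL1 (ENSBTAG00000004196, chromosome 19, 44863248 to 44892548) at 14.6 ± 3.03 against 1.09 ± 0.58 CPM (3.59 ± 0.63, adjusted p = 0.0009). Other rises rested on low mural levels: the metalloprotease MEP1B (8.23 ± 2.65 against 0.644 ± 0.815 CPM; 3.53 ± 0.83, adjusted p = 0.0078), the sialyltransferase ST6GALNAC5 (7.21 ± 2.63 against 0.588 ± 0.876 CPM; 3.48 ± 0.95, adjusted p = 0.017) and the cell adhesion protein NRXN2 (5.7 ± 3.7 against 0.5 ± 0.272 CPM; 3.44 ± 0.77, adjusted p = 0.0056). Without early_MGC 1 the log2 fold changes of NDUFA4L2, MEP1B and ST6GALNAC5 were 6.79, 4.53 and 4.95, and ST6GALNAC5 was not called without early_MGC 5 (0.0503). By limma-voom MEP1B (adjusted p = 0.11) and NRXN2 (0.2, or 0.086 with library weights) were not called. The neurotrophin receptor NGFR (5.79 ± 1.41), the pantetheinase VNN2 (3.81 ± 0.70) and the organic anion transporter SLC22A7 (3.48 ± 0.65) each had a single high cumulus library, early_CC 4 with 19.95 CPM, early_CC 1 with 42.7 and early_CC 3 with 21.7. Without those libraries their log2 fold changes were 4.68, 2.91 and 2.75, still called.

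The largest falls were those of THSD7A, VCAM1 and MSMB, genes that mural cells expressed and cumulus cells hardly did. They were chosen by the same rule. VCAM1, a cell adhesion protein known from endothelium and stroma (ENSBTAG00000007773, chromosome 3, 42553488 to 42576599), was counted at 0.598, 0.918, 0.385, 0.56 and 0.482 CPM in early_CC. VCAM1 gave 11.5, 26.6, 18.5, 44.1 and 93.3 CPM in early_MGC. The lowest mural library held 12.6 times the CPM of the highest cumulus library, and the log2 fold change was -6.11 ± 1.12, adjusted p = 0.0017. MSMB, a small secreted protein (ENSBTAG00000011660, chromosome 28, 44061316 to 44071826), stood at 1.1, 1.17, 1.54, 1.42 and 1.17 CPM in early_CC. MSMB gave 23, 14.6, 14.3, 37.6 and 96.5 CPM in early_MGC (log2 fold change -4.91 ± 0.57, adjusted p = 1.8e-05). Its mural values spread widely, and early_MGC 5 was the highest. THSD7A, a membrane protein with thrombospondin domains (ENSBTAG00000007680, chromosome 4, 19514202 to 19990379), had 0 counts in early_CC 1, 2 and 4, 0.0856 CPM in early_CC 3 and 0.241 in early_CC 5, against 1.54 to 18.7 CPM in early_MGC. Its log2 fold change of -6.72 ± 1.06, adjusted p = 0.00047 rested on few cumulus reads, and it was -8.08 without early_CC 5 and -6.13 without early_MGC 5.

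**Figure D2:**
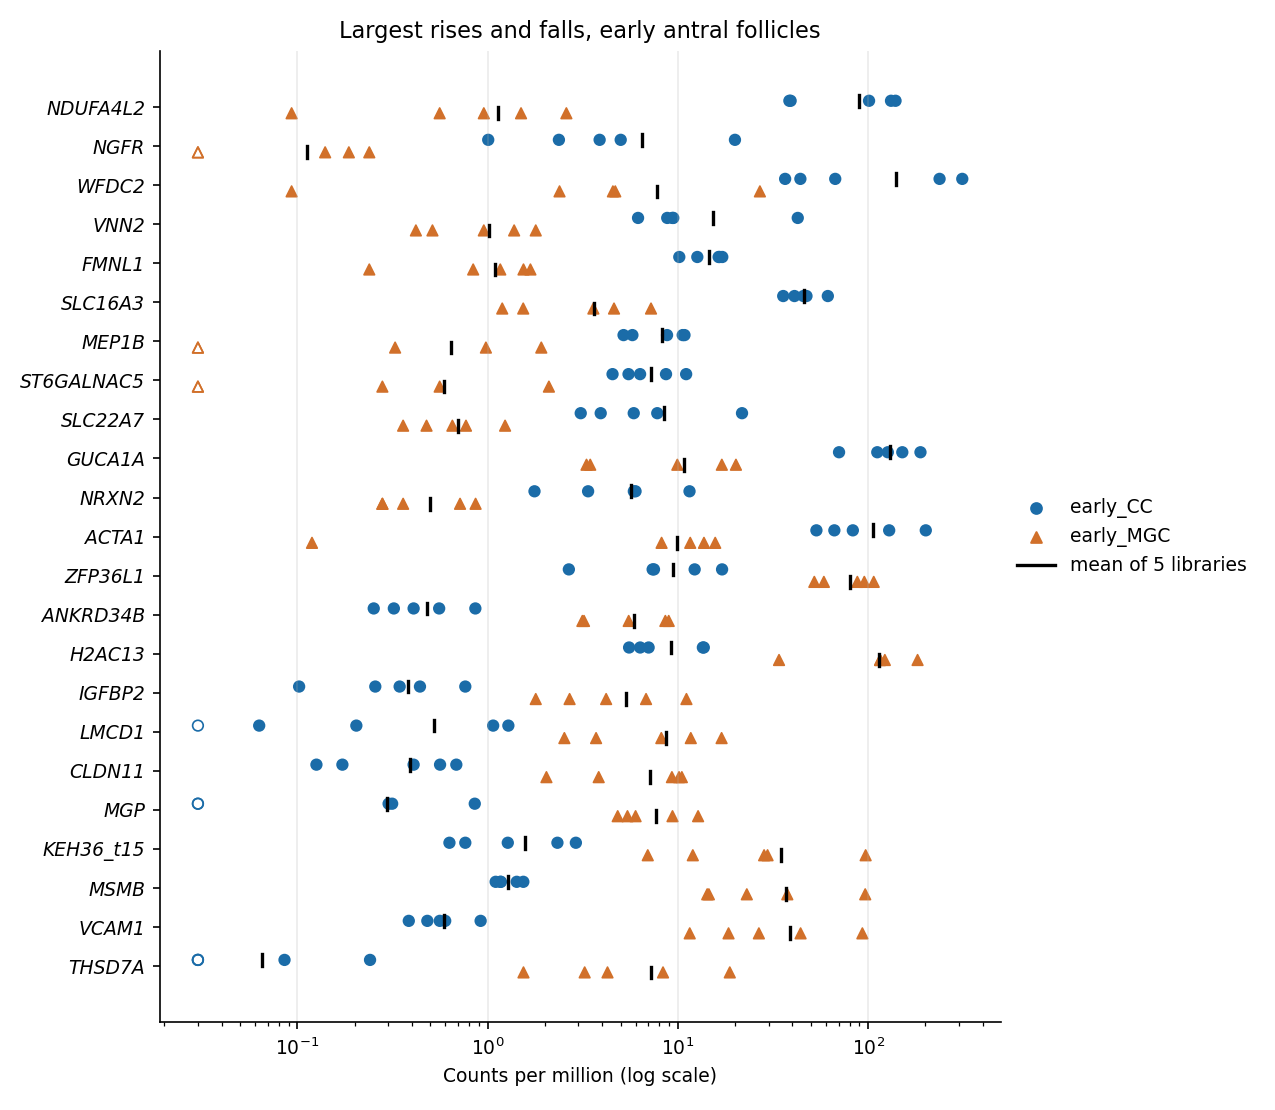
CPM (log scale) of the named genes with the largest rises and falls in early_CC, 1 point per library. Circles are early_CC, triangles early_MGC, black bars the means of 5 libraries, and open symbols at 0.03 stand for 0 counts. The groups do not overlap at any gene drawn, which the rule that chose the genes required.

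Of the more abundant genes that were higher in mural cells, ZFP36L1 and the histone H2AC13 stood out. ZFP36L1, which binds AU-rich elements and speeds the decay of messenger RNAs (ENSBTAG00000025434, chromosome 10, 80614620 to 80620778), was at 7.37, 12.2, 7.49, 2.67 and 17.1 CPM in early_CC. ZFP36L1 gave 58.5, 95.5, 52.1, 107 and 87.8 CPM in early_MGC, and its log2 fold change was -3.24 ± 0.54, adjusted p = 0.00072. H2AC13 (ENSBTAG00000046373, chromosome 23, 31001731 to 31002183), one of the replication-dependent histone genes, which may share reads with its near-identical copies, was at 9.22 ± 4.04 against 114 ± 52.6 CPM (-3.72 ± 0.43, adjusted p = 1.8e-05). The calcification inhibitor MGP (0.294 ± 0.349 against 7.68 ± 3.35 CPM; -4.78 ± 1.0, adjusted p = 0.0035), the tight junction protein CLDN11 (0.391 ± 0.242 against 7.16 ± 3.93 CPM; -4.3 ± 1.24, adjusted p = 0.025), the LIM domain protein LMCD1 (0.524 ± 0.605 against 8.62 ± 5.92 CPM; -4.14 ± 1.24, adjusted p = 0.031) and ANKRD34B (0.48 ± 0.242 against 5.88 ± 2.81 CPM; -3.72 ± 0.84, adjusted p = 0.0048) reached at most 1.285 CPM in any cumulus library. CLDN11 was not called without early_CC 1, 2, 4, 5 or early_MGC 4 (0.0501 to 0.0633) and LMCD1 not without early_CC 1, 2, 4 or early_MGC 4, 5 (0.0599 to 0.0724). MGP was -5.63 without early_CC 3 and LMCD1 -4.75 without early_CC 5. The mitochondrial tRNA KEH36_t15 (RefSeq name, 1.58 ± 0.998 against 34.8 ± 36.2 CPM) had its highest value, 97.0 CPM, in early_MGC 4, and its log2 fold change went from -4.68 ± 0.87, adjusted p = 0.0017 to -3.68 without that library.

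Genes of glycolysis from glucose-6-phosphate isomerase to the export of lactate were higher in cumulus cells. Of 22 listed genes, 13 rose in early_CC and none fell (59.1% against 6.7% of all genes tested), with a median log2 fold change of 1.5 against 0.007 over all genes. In the order of the pathway, the called enzymes were glucose-6-phosphate isomerase GPI (361 ± 50.5 against 114 ± 39.3 CPM; 1.55 ± 0.30, adjusted p = 0.0017), phosphofructokinase PFKL (148 ± 26.5 against 32.1 ± 18.4 CPM; 2.11 ± 0.39, adjusted p = 0.0014), the aldolases ALDOA (939 ± 94.1 against 237 ± 68.5 CPM; 1.88 ± 0.35, adjusted p = 0.0014) and ALDOC (1.89 ± 0.36, adjusted p = 0.0017), and TPI1 (1.99 ± 0.50, adjusted p = 0.011). They went on with GAPDH (6261 ± 853 against 1669 ± 544 CPM; 1.79 ± 0.40, adjusted p = 0.0043), PGK1 (1490.0 ± 214 against 381 ± 129 CPM; 1.87 ± 0.32, adjusted p = 0.0007), PGAM1 (1.23 ± 0.29, adjusted p = 0.0064), enolase ENO1 and pyruvate kinase PKM (732 ± 64.1 against 264 ± 77.9 CPM; 1.36 ± 0.31, adjusted p = 0.005). ENO1 (ENSBTAG00000013411, chromosome 16, 44553028 to 44566771) was counted at 3213, 3208, 3075, 2520.0 and 3446 CPM in early_CC 1 to 5. ENO1 gave 707, 654, 579, 188 and 328 CPM in early_MGC 1 to 5. The lowest cumulus library held 3.57 times the CPM of the highest mural library, and the log2 fold change was 2.55 ± 0.41, adjusted p = 0.00053. Per kilobase of exon (RPKM, CPM divided by exon length in kilobases), GAPDH stood at 3321 and 885 in early_CC and early_MGC, ENO1 at 1561 and 248 and PGK1 at 769 and 197.

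Of the subunits that turn pyruvate into lactate and back, LDHA was called and LDHB was not. LDHA, the lactate dehydrogenase subunit that favours lactate (ENSBTAG00000008683, chromosome 29, 26290893 to 26301350), was at 1398, 1045, 1414, 806 and 1141 CPM in early_CC 1 to 5. LDHA gave 271, 164, 176, 41.8 and 33.3 CPM in early_MGC 1 to 5. The groups did not overlap, early_MGC 4 and 5 were the lowest, and the log2 fold change was 2.96 ± 0.64, adjusted p = 0.0046. LDHB, the subunit that favours pyruvate (ENSBTAG00000019603, chromosome 5, 88544523 to 88562783), was at 1291 ± 69.2 against 1083 ± 148 CPM (log2 fold change 0.14 ± 0.18, adjusted p = 0.65), and its value changed sign, to -0.04, with offsets for gene length. PDK1, which keeps pyruvate out of the mitochondria by inhibiting pyruvate dehydrogenase, rose too (44.5 ± 4.09 against 15 ± 5.93 CPM; 1.45 ± 0.37, adjusted p = 0.011), as did SLC16A3 above. The glucose transporter SLC2A1 (72.6 ± 26.5 against 29.6 ± 8.18 CPM; 1.21 ± 0.45, adjusted p = 0.08) was not called, although its CPM overlapped in no library, and it was called with the 10 libraries alone (adjusted p = 0.00086). That was 1 of 6 among 22 alternative fits that called SLC2A1, none of which left out 1 library only. The members of the glycolysis list that were not called were HK1, HK2, PFKM, PFKP, PFKFB3, PFKFB4, ENO2, LDHB and SLC16A1, between -0.75 (ENO2) and 2.29 (PFKP). The 13 calls stayed at 13 without early_MGC 4 (1268 of all 14272 genes called) and without the mitochondrial genes (1853 of 14283). ALDOC, TPI1, GAPDH, PGAM1, PKM, GPI, LDHA, PDK1, LDHB and SLC2A1 are named here after their values were seen.

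**Figure D3:**
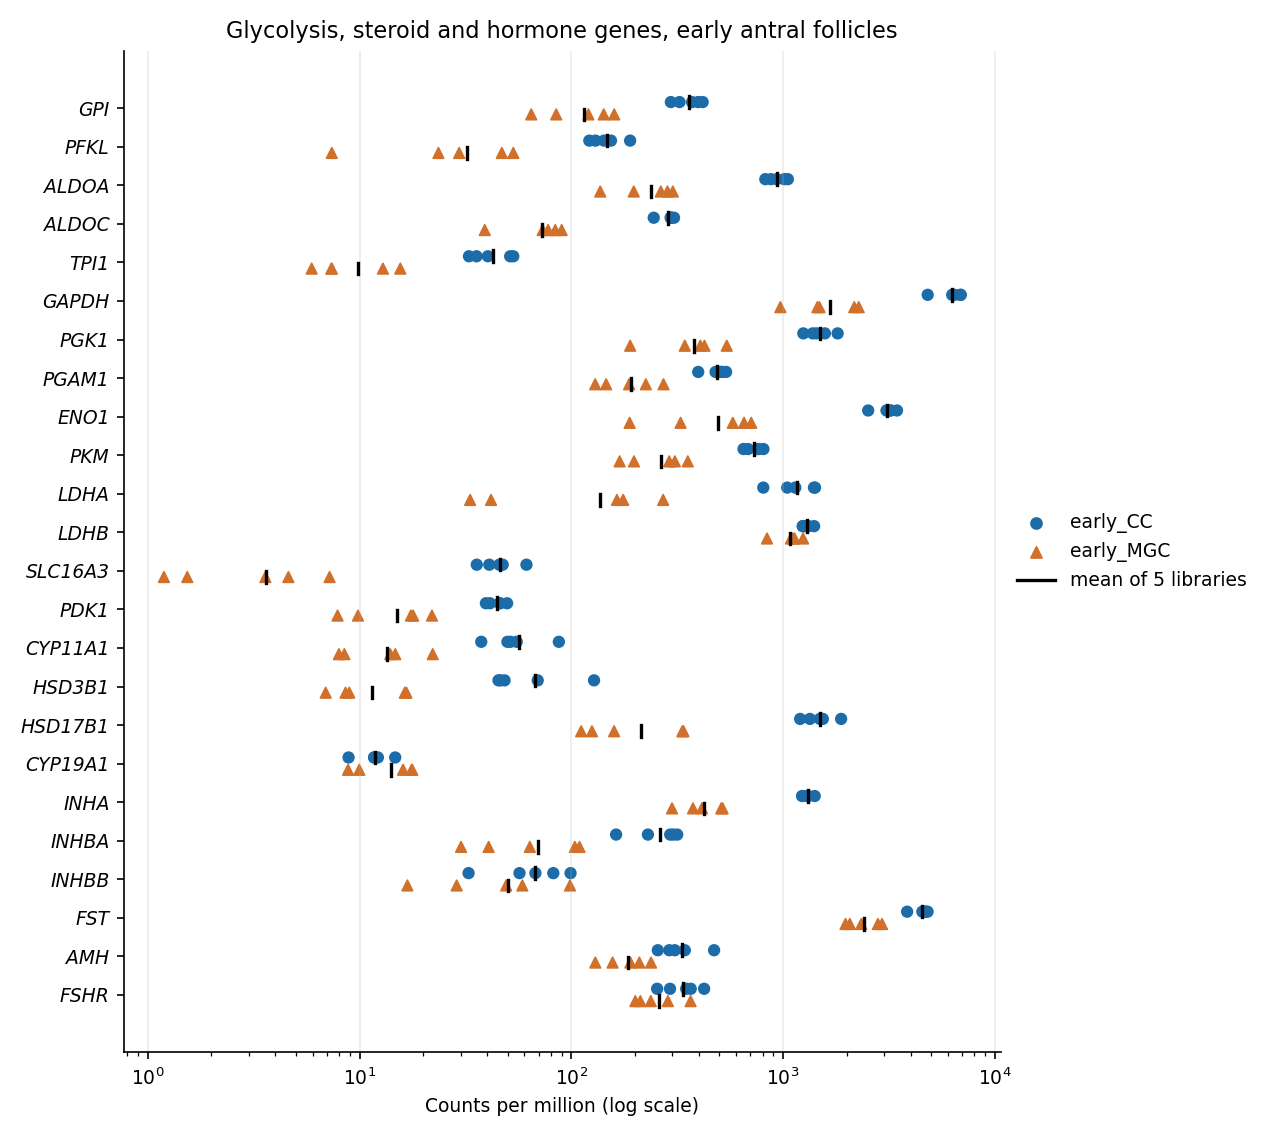
CPM (log scale) of glycolysis, steroid synthesis and hormone genes in each library, with circles for early_CC, triangles for early_MGC and black bars for the means of 5 libraries. From GPI to LDHA the cumulus points lie above the mural points, LDHB, CYP19A1, INHBB and FSHR overlap, and INHA separates fully although its adjusted p is 0.083.

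Some targets of the hypoxia response outside glycolysis rose as well. Of 16 genes tested, 5 rose in early_CC and none fell (31.2%), with a median log2 fold change of 0.65. Beside NDUFA4L2 they were the mitophagy receptor BNIP3, the angiogenic factor VEGFA, the collagen prolyl hydroxylase P4HA1 (119 ± 22.7 against 47.5 ± 7.82 CPM; 1.22 ± 0.33, adjusted p = 0.017) and ANKRD37 (1.56 ± 0.51, adjusted p = 0.046), which was not called without any 1 of the 10 libraries (0.0532 to 0.113). BNIP3 (ENSBTAG00000017804, chromosome 26, 51221616 to 51226873) was at 124, 76.1, 109, 78.3 and 97.7 CPM in early_CC. BNIP3 gave 14.4, 4.83, 15.1, 6.8 and 12 CPM in early_MGC. The cumulus libraries lay between 76.1 and 124 CPM, at least 5.04 times the highest mural library, and the log2 fold change was 3.08 ± 0.59, adjusted p = 0.002. VEGFA (ENSBTAG00000005339, chromosome 23, 17281915 to 17297193) was at 35.1, 65.7, 129, 55.1 and 61 CPM in early_CC. VEGFA gave 13.2, 26.6, 7.79, 11.7 and 5.69 CPM in early_MGC (log2 fold change 2.3 ± 0.49, adjusted p = 0.0039). Its highest value was in early_CC 3 and its lowest in early_MGC 5. The oxygen-regulated subunits HIF1A (0.38, adjusted p = 0.248) and EPAS1 (0.04, adjusted p = 0.977) and the hypoxia marker CA9 (-0.09, adjusted p = 0.943) were not called. NDUFA4L2 was not called by limma-voom (adjusted p = 0.066).

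The steroid enzymes CYP11A1, HSD3B1 and HSD17B1 were higher in cumulus cells, and aromatase was not called. Of 10 tested genes of steroid synthesis, 3 rose in early_CC and none fell (30%), with a median log2 fold change of 0.73. CYP11A1, which cleaves the cholesterol side chain (ENSBTAG00000006934, chromosome 21, 34328403 to 34342900), was at 51.6, 37.6, 55.2, 87.3 and 49.9 CPM in early_CC 1 to 5. CYP11A1 gave 14.8, 22.2, 14, 8 and 8.48 CPM in early_MGC 1 to 5. No library overlapped and the log2 fold change was 1.96 ± 0.40, adjusted p = 0.0027. HSD3B1, which makes progesterone from pregnenolone (ENSBTAG00000006769, chromosome 3, 23706733 to 23717051), was at 69.4, 45.3, 46.3, 128 and 48.4 CPM in early_CC. HSD3B1 gave 16.4, 6.92, 16.7, 8.59 and 8.95 CPM in early_MGC, with early_CC 4 the highest (log2 fold change 2.43 ± 0.46, adjusted p = 0.0017). HSD17B1, which reduces estrone to estradiol (ENSBTAG00000047604, chromosome 19, 42627994 to 42630487), was at 1203, 1539, 1878, 1490.0 and 1337 CPM in early_CC. HSD17B1 gave 334, 159, 338, 125 and 111 CPM in early_MGC. The lowest cumulus library held 3.56 times the CPM of the highest mural one, the log2 fold change was 2.67 ± 0.71, adjusted p = 0.017, and limma-voom did not call it (adjusted p = 0.061).

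CYP19A1, the aromatase that makes estrogens from androgens (ENSBTAG00000014890, chromosome 10, 59102240 to 59156607), was at 8.88, 11.7, 11.7, 14.7 and 12.2 CPM in early_CC. CYP19A1 gave 16.1, 17.6, 17.7, 8.83 and 9.97 CPM in early_MGC. These ranges overlapped and the log2 fold change was -0.36 ± 0.65, adjusted p = 0.76. Per kilobase of exon, CYP19A1 stood at 2.29 and 2.71 RPKM against 963 and 138 for HSD17B1. The cholesterol carrier STAR was not called (-0.06, adjusted p = 0.971). NR5A1, the nuclear receptor that drives steroid enzyme genes (81.9 ± 10.2 against 45 ± 8.39 CPM; 0.76 ± 0.27, adjusted p = 0.063), and the electron donor FDXR (178 ± 29.9 against 102 ± 26.1 CPM; 0.71 ± 0.25, adjusted p = 0.064), both named after their values were seen, were not called; with the 10 libraries alone both were (adjusted p = 0.0011 and 0.0061), which brought the list to 5 of its genes. NR5A1 and FDXR were each called in 5 of 22 alternative fits. The fit of the 10 libraries alone called 3035 of all 12980 genes it tested, 1511 of them higher in early_CC. The luteinising hormone receptor, LHCGR, was too low to test.

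Genes of cholesterol supply rose in part. Of 23 genes tested, 6 rose in early_CC and none fell (26.1%), and 21 of the 23 had log2 fold changes above 0 (median 0.59). The lipoprotein receptor SCARB1 (50.3 ± 7.92 against 25 ± 3.84 CPM; 0.90 ± 0.20, adjusted p = 0.0053) and the mevalonate kinase MVK (152 ± 63.1 against 44.1 ± 21.8 CPM; 1.7 ± 0.36, adjusted p = 0.0038) led, followed by ACAT2 (0.97 ± 0.26, adjusted p = 0.016), TM7SF2 (1.57 ± 0.45, adjusted p = 0.023), FDPS (1.02 ± 0.31, adjusted p = 0.033) and FDFT1 (0.95 ± 0.31, adjusted p = 0.042). SCARB1 had 45.5, 48.5, 52.5, 62.7 and 42.2 CPM in early_CC. SCARB1 gave 28.3, 29.6, 24.1, 21.2 and 21.6 CPM in early_MGC, with no overlap. ACAT2 was not called without early_MGC 4 (0.0507), TM7SF2 without early_CC 5 or early_MGC 1, 3, 4 (0.0509 to 0.0653), FDPS without early_CC 1, 5 or early_MGC 2, 4, 5 (0.0601 to 0.0937) and FDFT1 without any 1 of the 10 libraries (0.0502 to 0.102), and without early_MGC 4 the list had 2 calls. Over all genes, 1268 of 14272 were called without early_MGC 4.

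Of 8 gonadotrophin and steroid receptors tested, 1 rose (12.5%), the progesterone receptor PGR (12.6, 7.35, 8.73, 6.59 and 8.59 CPM in early_CC and 5.68, 3.22, 4.13, 2.15 and 5.55 in early_MGC), whose libraries did not overlap (log2 fold change 0.98 ± 0.29, adjusted p = 0.025); it was not called without early_CC 1 or early_MGC 2, 4 (0.0642 to 0.0852) or by limma-voom (0.052). FSHR was at 0.28 ± 0.46 (adjusted p = 0.73).

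Several hormones of the inhibin and activin family had cumulus values that did not overlap the mural ones and yet were not called in the fit of all 24 libraries. That fit takes the spread of a gene from all 5 groups of the series. INHA, the subunit shared by the inhibins (ENSBTAG00000009972, chromosome 2, 107501784 to 107504801), was at 1306, 1228, 1311, 1409 and 1290.0 CPM in early_CC 1 to 5. INHA gave 511, 518, 414, 299 and 375 CPM in early_MGC 1 to 5. The groups did not overlap and differed 2.88-fold in the fit, with a log2 fold change of 1.52 ± 0.57, adjusted p = 0.083; with the 10 libraries alone the adjusted p was 1.8e-05. INHBA, which forms activin A and inhibin A (ENSBTAG00000048508, chromosome 4, 79288772 to 79302445), was at 303, 293, 229.9, 316 and 163 CPM in early_CC. INHBA gave 109, 104, 63.7, 40.7 and 30.2 CPM in early_MGC, again without overlap (log2 fold change 1.8 ± 0.73, adjusted p = 0.11; 0.003 with the 10 libraries alone). INHBB, the other beta subunit (ENSBTAG00000049058, chromosome 2, 72108054 to 72113653), was at 82.2, 99.2, 32.7, 56.9 and 67.7 CPM in early_CC. INHBB gave 58.7, 98.5, 49.2, 28.8 and 16.8 CPM in early_MGC, and its ranges overlapped (0.31 ± 0.50, adjusted p = 0.73; 0.68 alone). The activin-binding follistatin, FST (ENSBTAG00000003329, chromosome 20, 25580150 to 25586931), had the highest level of these genes, 4701, 4806, 4541, 4692 and 3849 CPM in early_CC. FST gave 2930.0, 2802, 2339, 1970.0 and 2064 CPM in early_MGC, a log2 fold change of 0.79 ± 0.55, adjusted p = 0.37 in the fit of all libraries and an adjusted p of 0.0021 with the 10 alone. Of 22 alternative fits, 5 called INHA, 5 called INHBA and 4 called FST. DESeq2, limma-voom without library weights and the fits that left out 1 library called none of these 3 genes. Per kilobase of exon FST stood at 1722 and 923 RPKM in early_CC and early_MGC and INHA at 1107 and 358.

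In the same list of 8 tested genes, the call went the other way for TGFBR3, the coreceptor that binds inhibin (ENSBTAG00000024269, chromosome 3, 51501752 to 51709606). It was at 8.94, 5.61, 8.09, 8.88 and 6.95 CPM in early_CC. TGFBR3 gave 17.8, 26.6, 22.4, 11.7 and 49 CPM in early_MGC, each mural library above each cumulus library, and its log2 fold change was -1.78 ± 0.38, adjusted p = 0.0039. The list's median was 0.55, with 0 genes higher and 1 (12.5%) lower in early_CC, or 4 and 3 with the 10 libraries alone. Over all 12980 genes of that smaller fit, 1511 were called higher and 1524 lower in early_CC. Anti-Müllerian hormone, AMH (ENSBTAG00000014955, chromosome 7, 21401483 to 21404348), was at 256, 308, 343, 472 and 290 CPM in early_CC. AMH gave 190, 209, 157, 129.8 and 238 CPM in early_MGC. Its groups did not overlap, the log2 fold change was 0.77 ± 0.58, adjusted p = 0.41, and the adjusted p with the 10 libraries alone was 0.0054. AMH was called in 4 of 22 alternative fits, none of which left out 1 library only. Its receptor AMHR2 (6.85 ± 2.25 against 7.31 ± 3.4 CPM; -0.20 ± 0.41, adjusted p = 0.79) overlapped, as did the lineage factor FOXL2 (1.77 ± 1.06 against 0.574 ± 0.352 CPM; 1.48 ± 0.71, adjusted p = 0.17). Of the 12 tested AMH and granulosa lineage genes, 0 were called in edgeR's fit of all libraries (3 at an unadjusted p under 0.05, 0 with limma-voom) and 3 with the 10 libraries alone, 2 higher and 1 lower in early_CC, with a median of 0.19. Over all genes, 3978 of 14298 had an unadjusted p under 0.05 in edgeR's fit of all libraries. With the 10 libraries alone 3035 of 12980 were called, and the list's shares lie near both of these.

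Genes by which granulosa cells support and restrain the oocyte gave 3 rises and no fall among 12 tested (25%; median -0.03). They were NPR2, the guanylate cyclase receptor that holds meiosis through cyclic GMP (ENSBTAG00000011434, chromosome 8, 59956219 to 59974722), the soluble guanylate cyclase subunit GUCY1B1 (78 ± 13.1 against 44.2 ± 9.77 CPM; 0.68 ± 0.23, adjusted p = 0.048) and the glutamine transporter SLC38A5 (20 ± 9.57 against 7.21 ± 3.36 CPM; 1.35 ± 0.37, adjusted p = 0.018). NPR2 was at 10.7, 11, 11, 6.85 and 9.88 CPM in early_CC. NPR2 gave 5.74, 1.89, 3.54, 0.597 and 8.11 CPM in early_MGC. Early_CC 4 was the lowest cumulus library and early_MGC 5 the highest mural one, so the ranges overlapped, and the log2 fold change was 1.23 ± 0.36, adjusted p = 0.026. All 3 rises were lost in some fits that left out 1 library: NPR2 without early_CC 1, 3 or early_MGC 2, 4 (0.0503 to 0.0701), GUCY1B1 without early_CC 1, 2, 3, 4, 5 or early_MGC 1, 2, 3, 5 (0.0504 to 0.139) and SLC38A5 without early_CC 5 or early_MGC 4, 5 (0.0518 to 0.0705). NPPC, the ligand of NPR2, was at 0 to 1.12 CPM in early_CC and 0 to 0.886 in early_MGC. KIT ligand, KITLG, a granulosa signal for oocyte growth (ENSBTAG00000017549, chromosome 5, 18250809 to 18353485), was at 8.38, 9.49, 10.7, 4.01 and 8.84 CPM in early_CC. KITLG gave 14.8, 18.8, 22.5, 13 and 33 CPM in early_MGC. Each mural library exceeded each cumulus library, and the log2 fold change was -1.39 ± 0.57, adjusted p = 0.11, against an adjusted p of 0.00096 with the 10 libraries alone and 0.047 with DESeq2. KITLG was called in 7 of 22 alternative fits, none of which left out 1 library only. SLC38A3 was too low to test.

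The BMP and TGF-beta pathway gave 3 falls and no rise among 21 tested genes (14.3% against 6.39% of all genes; median -0.42). The signal transducer SMAD5 (66.5 ± 7.79 against 95.4 ± 16.5 CPM; -0.64 ± 0.16, adjusted p = 0.012), the BMP antagonist GREM1 (58.5 ± 10.7 against 87.2 ± 30.1 CPM; -0.66 ± 0.22, adjusted p = 0.0498) and the ligand TGFB3 (0.564 ± 0.516 against 2.65 ± 1.73 CPM; -2.37 ± 0.77, adjusted p = 0.043) were higher in early_MGC. GREM1 (ENSBTAG00000050495, chromosome 10, 29964364 to 29978686) was at 73, 57.6, 53.6, 44.5 and 63.9 CPM in early_CC. GREM1 gave 121, 103, 73.1, 42.8 and 95.9 CPM in early_MGC; early_MGC 4 lay below the cumulus range, and the call was lost without early_CC 2, 3, 4, 5 or early_MGC 1, 2, 3, 5 (0.0541 to 0.149). SMAD5 was -0.42 and not called with length-corrected offsets (adjusted p = 0.065). TGFB3 was not called without early_CC 1, 2, 3, 4 or early_MGC 2, 4, 5 (0.0531 to 0.113), and was -3.00 without early_CC 5. BMPR2, the type II receptor of GDF9 and BMP15, was at 22 ± 1.95 against 28 ± 6.31 CPM (-0.44 ± 0.20, adjusted p = 0.16), and the target ID1 was not called (-0.85, adjusted p = 0.319).

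Genes of filopodia and actin protrusions, the machinery of which transzonal projections are built, gave calls in both directions (21.9% called against 13.1% of all genes). Of 32 tested, 3 rose (9.4% against 6.7% of all genes) and 4 fell (12.5% against 6.39%) in early_CC, and the median was -0.18. The actin-binding proteins CFL1, which severs filaments (742 ± 172 against 319 ± 80.1 CPM; 1.1 ± 0.25, adjusted p = 0.005), and PFN1, which feeds monomers to growing ends (634 ± 117 against 260.1 ± 79.8 CPM; 1.17 ± 0.27, adjusted p = 0.0056), rose, as did the Arp2/3 subunit ARPC1A (76 ± 9.52 against 42.5 ± 6.11 CPM; 0.73 ± 0.16, adjusted p = 0.0046). Other parts of the Arp2/3 complex, ARPC3 (9.43 ± 1.89 against 14.4 ± 1.15 CPM; -0.73 ± 0.22, adjusted p = 0.031) and ACTR2 (37.6 ± 3.95 against 57.2 ± 1.9 CPM; -0.72 ± 0.23, adjusted p = 0.035), fell, and so did the formin FMNL2 (-0.60 ± 0.19, adjusted p = 0.037) and FNBP1L (-1.39 ± 0.43, adjusted p = 0.034), which links membranes to actin assembly. The 4 falls were each lost when 1 library was left out: ARPC3 without early_CC 3, 5 or early_MGC 2, 3, 4 (0.0504 to 0.0838), ACTR2 without early_CC 1, 3, 4, 5 or early_MGC 1, 3, 4 (0.052 to 0.0824), FMNL2 without early_CC 1, 2, 3, 5 or early_MGC 2, 4, 5 (0.0511 to 0.0979) and FNBP1L without early_CC 1, 3, 4, 5 or early_MGC 2, 4, 5 (0.0539 to 0.0872). FMNL2, FNBP1L and ACTR2 are named after their values were seen.

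The 3 filopodial genes fixed by name were not called, and their ranges overlapped. MYO10, the motor that carries cargo to filopodial tips (ENSBTAG00000020126, chromosome 20, 56233771 to 56495596), was at 28.1, 83.5, 76.6, 35 and 49.9 CPM in early_CC. MYO10 gave 32, 52.9, 39.4, 42.8 and 40.1 CPM in early_MGC. The lowest value and the 2 highest were all those of cumulus libraries, and the log2 fold change was 0.27 ± 0.25, adjusted p = 0.52. The actin bundler FSCN1 (2.38 ± 1.03 against 3.99 ± 1.89 CPM; -0.85 ± 0.89, adjusted p = 0.57) and the formin DAAM1 (22.6 ± 4.02 against 24.6 ± 7.91 CPM; -0.21 ± 0.29, adjusted p = 0.68) were the others.

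Of 15 tested genes of gap and adherens junctions, 2 rose (13.3% against 6.7% of all genes) and 1 fell (6.7% against 6.39%), with a median of -0.03. AFDN, which ties nectins to actin (113, 190.5, 164, 171 and 146 CPM in early_CC and 65.9, 98, 64.1, 65.2 and 90.9 in early_MGC; log2 fold change 0.93 ± 0.20, adjusted p = 0.0043), and CTNNB1, the beta-catenin of cadherin junctions (283 ± 37.4 against 173 ± 30.6 CPM; 0.60 ± 0.17, adjusted p = 0.018), rose, and NECTIN3 (9.16, 9.34, 11, 8.62 and 9.2 CPM in early_CC and 14.8, 16.6, 12.1, 23.5 and 29.8 in early_MGC; log2 fold change -1.14 ± 0.23, adjusted p = 0.0024) fell. The libraries did not overlap for AFDN or NECTIN3. CTNNB1 was not called without early_MGC 5 (0.0549). The gap junction proteins GJA1 (458 ± 90.7 against 568 ± 192 CPM; -0.45 ± 0.28, adjusted p = 0.31), which couples granulosa cells to one another, and GJA4 (3.78 ± 1.62 against 3.45 ± 0.773 CPM; -0.01 ± 0.93, adjusted p = 1), known from the oocyte side, overlapped between the groups. CDH1 (ENSBTAG00000015991, chromosome 18, 36046665 to 36119368) was at 18.1, 16.2, 20.1, 29.7 and 12.7 CPM in early_CC. CDH1 gave 6.67, 6.36, 6.83, 6.56 and 11.8 CPM in early_MGC, with no overlap, a log2 fold change of 1.25 ± 0.68, adjusted p = 0.24, and 0.0019 with the 10 libraries alone. It was called in 5 of 22 alternative fits, none of which left out 1 library only. CDH2 (250 ± 61.4 against 238 ± 33.1 CPM; -0.03 ± 0.25, adjusted p = 0.95) overlapped.

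Of 13 tubulin and microtubule genes tested, 4 rose in early_CC (30.8%) and none fell, with a median of 0.84: TUBB (623 ± 109 against 274 ± 80.9 CPM; 1.08 ± 0.21, adjusted p = 0.0018), TUBA1B (1910.0 ± 472 against 927 ± 265 CPM; 0.94 ± 0.24, adjusted p = 0.012), TUBG1 (0.93 ± 0.28, adjusted p = 0.03) and TUBB2B (1.99 ± 0.66, adjusted p = 0.045). Tubulin genes resemble one another, so reads may be shared among them. TUBG1 was not called without early_CC 1, 5 or early_MGC 4, 5 (0.0728 to 0.087) and TUBB2B not without early_CC 1, 3, 4, 5 or early_MGC 2, 3, 4, 5 (0.0627 to 0.101).

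Cell cycle genes gave 4 rises and no fall among 30 (13.3%; median 0.5). The mitotic kinases AURKA (126, 110.3, 124, 111 and 122 CPM in early_CC and 54, 48.5, 59.1, 19.6 and 32.1 in early_MGC; log2 fold change 1.37 ± 0.30, adjusted p = 0.0046) and PLK1 (54 ± 10.2 against 19.7 ± 8.16 CPM; 1.35 ± 0.36, adjusted p = 0.016) did not overlap between the groups, and CDK4 (0.68 ± 0.22, adjusted p = 0.039) and the replication helicase subunit MCM5 (1.07 ± 0.36, adjusted p = 0.0498) rose by less. CDK4 was not called without early_CC 1, 3, 5 or early_MGC 2, 4, 5 (0.0592 to 0.11), and MCM5 not without early_CC 1, 2, 3, 4, 5 or early_MGC 1, 3, 4, 5 (0.0533 to 0.122). The proliferation markers MKI67 (70.1 ± 18 against 67.7 ± 24.4 CPM; -0.07 ± 0.40, adjusted p = 0.93) and TOP2A (321 ± 80.3 against 320.2 ± 95.9 CPM; -0.12 ± 0.35, adjusted p = 0.86), named after their values were seen, had nearly equal means, and both changed sign, to 0.20 and 0.02, with length-corrected offsets.

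Among 16 genes of apoptosis and the p53 response, 3 were higher in early_MGC (18.8% against 6.39% of all genes) and 1 in early_CC (6.2% against 6.7%). The p53 targets SESN1 (3.18, 4.13, 4.53, 4.31 and 3.77 CPM in early_CC and 9.81, 7.48, 10.9, 5.25 and 17 in early_MGC; log2 fold change -1.42 ± 0.26, adjusted p = 0.001), CCNG1 (124 ± 14.1 against 182 ± 22.1 CPM; -0.67 ± 0.16, adjusted p = 0.0074) and MDM2 (18.9 ± 1.25 against 27.6 ± 8.03 CPM; -0.64 ± 0.15, adjusted p = 0.0081) fell in early_CC, and SESN2 (31.3 ± 4.81 against 18.1 ± 4.1 CPM; 0.68 ± 0.22, adjusted p = 0.043) rose but was not called without early_CC 2, 3, 4, 5 or early_MGC 1, 3, 4, 5 (0.0518 to 0.108). Of 16 regulators and targets of YAP and TEAD, the kinase LATS1 (9.62 ± 1.83 against 16.2 ± 3.56 CPM; -0.85 ± 0.24, adjusted p = 0.021) and its activator MOB1A (12.5 ± 2.72 against 20.8 ± 3.59 CPM; -0.84 ± 0.24, adjusted p = 0.021) fell in early_CC (12.5%; median -0.43), LATS1 with its call lost without early_CC 5 or early_MGC 5 (0.056 to 0.0563) and with length-corrected offsets (0.071), and MOB1A without early_CC 3, 4 (0.0544 to 0.0605). The targets CCN1 (-0.54, adjusted p = 0.68) and CCN2 (-0.40, adjusted p = 0.873) were not called. Of 25 immediate early and heat shock genes, ZFP36L1 above was the 1 called (4.0% lower in early_CC; median -0.43), while FOS (-0.32, adjusted p = 0.798) and EGR1 (-0.86, adjusted p = 0.595) were not.

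Among the signalling pathways, single ligands and targets were called. Over all genes tested, 6.7% were called higher in early_CC and 6.39% higher in early_MGC. The share of each list, here, above and below, stands against these, and several shares lie near them. The Hedgehog ligand IHH (ENSBTAG00000008452, chromosome 2, 107001051 to 107007228) was at 666, 573, 899.8, 753 and 403 CPM in early_CC 1 to 5. IHH gave 164, 92.3, 77.5, 45.8 and 44.2 CPM in early_MGC 1 to 5. The lowest cumulus library, early_CC 5, had 2.45 times the CPM of the highest mural library, early_MGC 1, and the log2 fold change was 2.85 ± 0.75, adjusted p = 0.016; limma-voom did not call it (adjusted p = 0.067). IHH was the 1 gene called of 8 tested in the Hedgehog pathway (12.5%; median -0.09). PTCH1, the receptor and a target of the pathway, was at 10.5 ± 3.52 against 14 ± 8.11 CPM (-0.46 ± 0.29, adjusted p = 0.31) and the target GLI1, under 1 CPM in both groups, was not called (-1.95, adjusted p = 0.347).

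In the Wnt pathway 2 of 22 genes rose (9.1%; median 0.12), the ligand WNT11 (17.8, 13.1, 8.9, 19.7 and 12.9 CPM in early_CC and 3.4, 4.69, 4.43, 2.62 and 2.42 in early_MGC; log2 fold change 1.93 ± 0.34, adjusted p = 0.00083) and the secreted Wnt antagonist SFRP4 (82.3, 62.3, 64.8, 120 and 75.8 CPM in early_CC and 19.4, 29.2, 19.3, 6.92 and 21.7 in early_MGC; 1.99 ± 0.42, adjusted p = 0.0035). Neither overlapped. The feedback targets AXIN2 (18.2 ± 4.36 against 16.1 ± 4.47 CPM; 0.07 ± 0.31, adjusted p = 0.9) and NKD1 (23.6 ± 5.76 against 21.2 ± 6.83 CPM; 0.04 ± 0.41, adjusted p = 0.96) were not called. In the Notch pathway 1 of 12 rose (8.3%; median 0.6), the target HEY1 (4.63, 1.28, 5.56, 3.79 and 2.85 CPM in early_CC and 0.247, 0.42, 0.659, 0 and 0 in early_MGC; log2 fold change 3.6 ± 0.96, adjusted p = 0.015, or 4.29 without early_MGC 3), and the related HEY2 was at 55.9 ± 16.3 against 34 ± 5.86 CPM (0.60 ± 0.28, adjusted p = 0.17). PTCH1, AXIN2 and HEY2 are named after their values were seen.

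In the insulin-like growth factor system IGFBP2, which binds and holds back the growth factors (ENSBTAG00000005596, chromosome 2, 104619851 to 104649017), was the 1 gene called of 10 (10%; median -0.1). It was at 0.441, 0.102, 0.257, 0.345 and 0.763 CPM in early_CC. IGFBP2 gave 1.79, 4.2, 2.7, 6.8 and 11.1 CPM in early_MGC, above each cumulus library, with a log2 fold change of -3.85 ± 0.89, adjusted p = 0.006. Of 21 genes of basement membrane and matrix, the collagen IV chain COL4A6 (0.324 ± 0.291 against 2.07 ± 1.11 CPM; -2.76 ± 0.77, adjusted p = 0.019) was the 1 called (4.8%; median -0.08). It was not called without early_MGC 5 (0.0509), and was -3.38 without early_CC 2. The cumulus expansion list, of 11 tested genes, had 0 calls in edgeR's fit of all libraries (2 at an unadjusted p under 0.05, 0 with limma-voom) and 2 with the 10 libraries alone (median -0.19). In it the proteoglycan VCAN (836, 784, 799, 783 and 809.7 CPM in early_CC and 521, 547, 418, 306 and 377 in early_MGC; log2 fold change 0.78 ± 0.29, adjusted p = 0.075) and the prostaglandin synthase PTGES (109.7 ± 24.5 against 41.4 ± 12.5 CPM; 1.29 ± 0.53, adjusted p = 0.11), named after their values were seen, did not overlap between the groups, and their adjusted p values with the 10 libraries alone were 0.0024 and 0.00067. VCAN was called in 6 and PTGES in 5 of 22 alternative fits, none of which left out 1 library only. Over all genes, 3978 of 14298 had an unadjusted p under 0.05 in edgeR's fit of all libraries. With the 10 libraries alone 3035 of 12980 were called. PTGS2 (-0.19, adjusted p = 0.881) and HAS2 (-1.26, adjusted p = 0.545), genes of the expansion that follows the ovulatory surge, were not called.

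**Figure D4:**
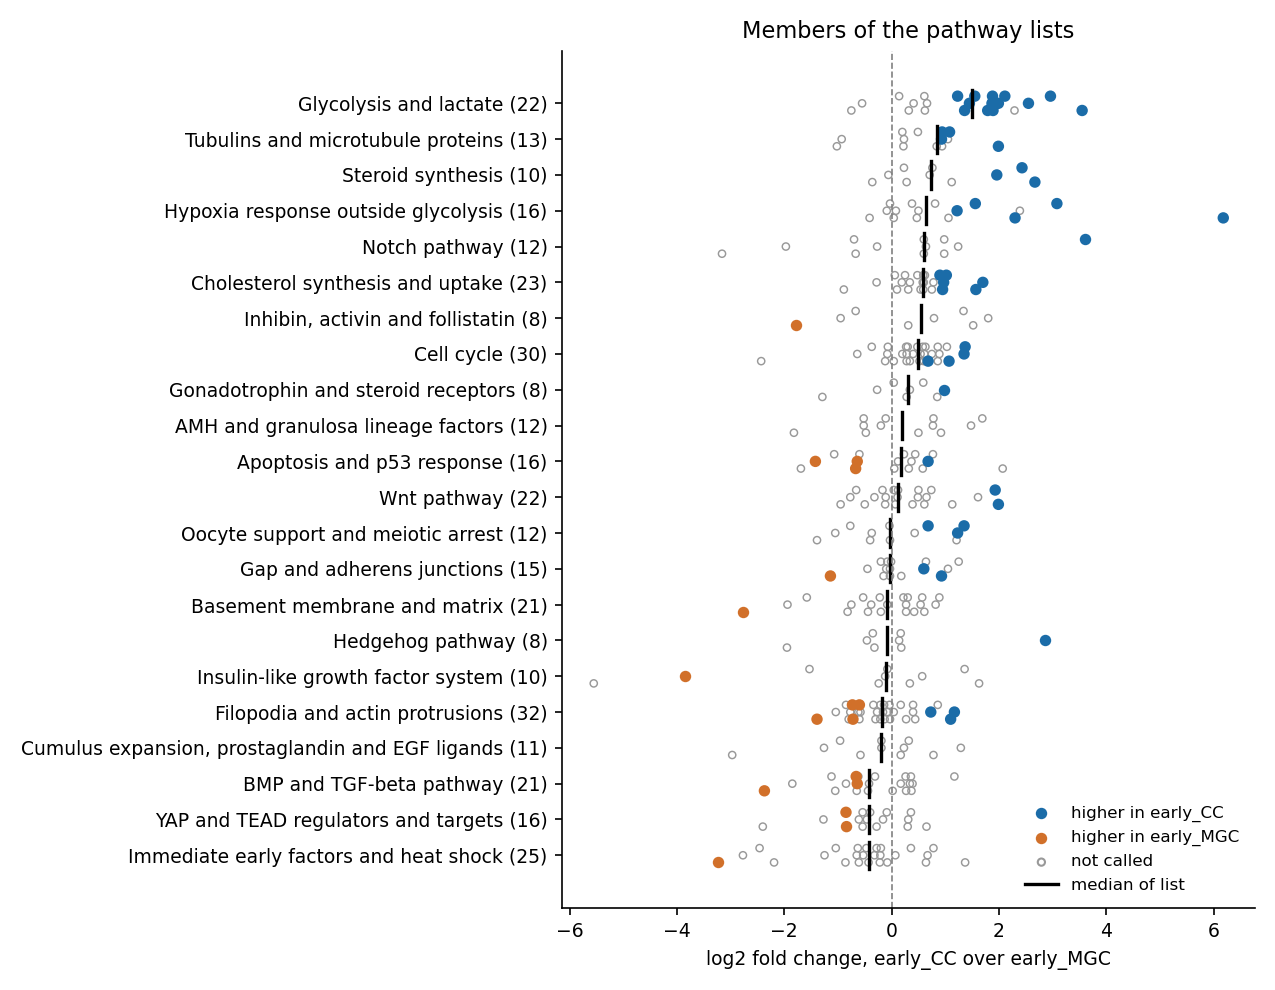
log2 fold change (early_CC over early_MGC) of each tested gene of the 22 pathway lists, with the number tested in brackets. Filled points passed an adjusted p under 0.05, open points did not, and black bars are list medians, the highest of which is that of glycolysis and lactate at 1.5.

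Transcripts of the mitochondrial genome were higher in mural cells. Of the 13 mitochondrial protein genes 10 were called higher in early_MGC (76.9% against 6.39% of all genes) and 0 higher in early_CC, with a median log2 fold change of -1.55, and both ribosomal RNAs and 5 of 17 tRNAs (29.4%) were called the same way. This group was formed after its values were seen, and it makes up the mitochondrial share of counts that is highest in early_MGC 4. The complex I subunits ND5 (724 ± 200.1 against 2743 ± 1468 CPM; -2.1 ± 0.44, adjusted p = 0.0032) and ND1 (973 ± 181 against 2500.0 ± 1407 CPM; -1.55 ± 0.38, adjusted p = 0.0083) and the ATP synthase subunit ATP8 (99.6 ± 28.2 against 701 ± 596 CPM; -3.03 ± 0.56, adjusted p = 0.0015) were among them, while COX1 (9835 ± 1989 against 17620.0 ± 8179 CPM; -1.01 ± 0.37, adjusted p = 0.071) was not called. Without early_MGC 4 the number of called protein genes was 4 (30.8%), that of tRNAs 1 (5.9%) and that of ribosomal RNAs 2. That fit called 1268 of all 14272 genes, 637 of them higher in early_MGC. Nuclear genes for complex I had a median of 0.05 over 36 genes, with 1 called higher in early_CC (2.8% against 6.7% of all genes), and those for complexes III, IV and V a median of 0.08 over 36 genes, with 3 called higher in early_CC (8.3%) and 0 higher in early_MGC in both groups.

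Among the markers of other cell types 3 genes were called, each in a short list. Over all genes tested the share called was 13.1%. MYH11, the myosin heavy chain of smooth muscle (ENSBTAG00000015988, chromosome 25, 14124964 to 14252413), was at 38.2, 50.1, 40.9, 34.1 and 46.4 CPM in early_CC. MYH11 gave 107, 208, 137, 216 and 386 CPM in early_MGC. All mural libraries lay above all cumulus libraries and the log2 fold change was -2.42 ± 0.50, adjusted p = 0.0033; it was the 1 called of 14 theca and stroma markers (7.1%). Of these 14, 2 lay higher in early_CC without overlap, COL1A1 (6.94 against 1.46 CPM on average) and PDGFRA (1.95 against 0.703), neither called. The 2 that lay higher in early_MGC without overlap were MYH11 and DES (0.704 against 3.62 CPM, not called). In the same list the small proteoglycan LUM was at 533, 48.3, 243, 151 and 80.8 CPM in early_CC. LUM gave 73.5, 11.8, 30.5, 40.9 and 16.6 CPM in early_MGC, higher on average in early_CC but overlapping (2.48 ± 1.19, adjusted p = 0.18). LUM was called without the 3 libraries of lowest correlation (adjusted p = 0.017) and by limma-voom with library weights (0.05). PTPRC, the pan-leukocyte marker CD45, was at 0.157, 0, 0.257, 0 and 0.321 CPM in early_CC. PTPRC gave 0.247, 0.21, 0.659, 5.25 and 3.63 CPM in early_MGC (log2 fold change -3.84 ± 1.06, adjusted p = 0.021, or -2.92 without early_MGC 4). Its 2 highest libraries were early_MGC 4 and 5, and it was not called without early_MGC 4, 5 (0.0512 to 0.0821). PTPRC was the 1 called of 4 tested blood cell markers (25%). Of the same list, CD3E went the other way, at a mean of 0.395 CPM in early_CC and 0 counts in early_MGC. LYZ averaged 0.344 CPM in early_CC and 1.57 in early_MGC. UPK1B, listed as a marker of the ovarian surface epithelium (ENSBTAG00000009014, chromosome 1, 63981593 to 64010650), was at 641, 473, 935, 753 and 553 CPM in early_CC. UPK1B gave 301, 269, 206, 284 and 154 CPM in early_MGC, with no overlap (1.33 ± 0.34, adjusted p = 0.012); KRT7 and EPCAM, other markers of that list, had 0 counts in all 10 libraries and KRT19 stood at 0.631 and 0.562 CPM on average. UPK1B was the 1 called of 3 tested surface epithelium markers (33.3%). None of the 5 tested endothelial markers was called by edgeR (median -1.53; 1 at an unadjusted p under 0.05, 2 with limma-voom). Over all 14298 genes, 3978 had an unadjusted p under 0.05 by edgeR and limma-voom called 2058. What part cells of other types have in the differences between the groups was not tested.

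The difference between cumulus and mural cells was then set against the same difference in late antral follicles, which rests on other libraries. There 5673 genes were called (39.7%), 2704 higher in late_CC and 2969 higher in late_MGC. Of the 1871 genes called in early antral follicles, 482 were called in the same direction late (25.8% of the early calls and 8.5% of the late ones) and 352 in the opposite direction. The test of the difference itself, an interaction of stage and cell type, called 4486 genes (31.4%) and 1072 of the 1871 (57.3%). The interaction contains the early difference by which the 1871 were chosen. Their higher share is therefore set in part by that choice. Of the 93 named genes called early, 90 had counts in both late groups, and 40 of those were called in the interaction, 23 of them with late log2 fold changes of the opposite sign. Some of the 93 were named for having the largest interactions of either sign. The counts of 40 and 23 are thus partly fixed by the naming and describe these genes only.

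The hypoxia genes VEGFA, PDK1 and P4HA1 differed more in late follicles. VEGFA went from 2.3 ± 0.49 early to 6.67 ± 0.59 late (991 ± 538 against 8.03 ± 3.09 CPM late; interaction 4.37 ± 0.69, adjusted p = 7.5e-05), PDK1 from 1.45 ± 0.37 to 3.89 ± 0.40 (2.44 ± 0.52, adjusted p = 0.0011) and P4HA1 from 1.22 ± 0.33 to 2.78 ± 0.35 (1.56 ± 0.46, adjusted p = 0.012). The Wnt antagonist SFRP4 (1.99 ± 0.42 to 5.86 ± 0.52; 3.86 ± 0.63, adjusted p = 9.5e-05), the embryonic globin HBZ (3.92 ± 0.97 to 9.62 ± 0.93; 5.70 ± 1.87, adjusted p = 0.024) and CCDC184 (2.24 ± 0.73 to 6.96 ± 0.92; 4.72 ± 1.13, adjusted p = 0.0027) gained as well. CCDC184 was not called in early follicles without early_CC 1, 2, 3, 5 or early_MGC 1, 3, 4, 5 (0.0569 to 0.105), and HBZ, whose family may share reads, was 4.76 without early_MGC 2. By limma-voom the early differences of HBZ (adjusted p = 0.35, or 0.18 with library weights) and CCDC184 (0.19 and 0.063) were not called. Core glycolysis genes were not called in the interaction, which was -0.09 ± 0.55, adjusted p = 0.92, for ENO1, -0.04 ± 0.44, adjusted p = 0.96, for PGK1 and -0.43 ± 0.84, adjusted p = 0.74, for LDHA. Of the 22 listed genes 7 were called in it, a share near the 31.4% of all genes.

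Other genes had a smaller or opposite difference late. PFN1 and TUBA1B, higher in early_CC, were higher in mural cells late: PFN1 went from 1.17 ± 0.27 to -1.57 ± 0.27 (-2.74 ± 0.38, adjusted p = 1.8e-05) and TUBA1B from 0.94 ± 0.24 to -1.77 ± 0.25 (-2.71 ± 0.35, adjusted p = 9.3e-06). SDF2L1 of the endoplasmic reticulum (0.98 ± 0.32 to -2.86 ± 0.35; -3.84 ± 0.47, adjusted p = 6.3e-06), the RNA helicase DDX39A (1.13 ± 0.36 to -2.45 ± 0.38; -3.58 ± 0.52, adjusted p = 3.3e-05), YIF1B (1.93 ± 0.51 to -1.56 ± 0.52; -3.49 ± 0.72, adjusted p = 0.00076) and the arginine synthesis enzyme ASS1 (2.0 ± 0.63 to -2.28 ± 0.76; -4.28 ± 0.99, adjusted p = 0.0019) turned too. In early follicles SDF2L1 was not called without early_CC 1, 2, 3, 4, 5 or early_MGC 2, 3, 4, 5 (0.0541 to 0.103), DDX39A without early_CC 1, 2, 3, 5 or early_MGC 1, 2, 4 (0.0507 to 0.111) and ASS1 without early_CC 1, 3, 5 or early_MGC 1, 3, 4, 5 (0.0568 to 0.0971), and ASS1 was 2.79 without early_MGC 2. NGFR had 0 counts in late_CC, a limit of 0.0361 CPM. HSD3B1 had a smaller difference late (2.43 ± 0.46 to 0.09 ± 0.43; -2.34 ± 0.62, adjusted p = 0.0063), with late means of 171 ± 74.5 against 141 ± 93.8 CPM. ZFP36L1 went from -3.24 ± 0.54 to 1.14 ± 0.50 (4.39 ± 0.73, adjusted p = 0.00014). By contrast, MYO10, not called early, had a larger difference late, 2.01 ± 0.26 (interaction 1.74 ± 0.36, adjusted p = 0.00069). Of the 30 cell cycle genes 23 were called in the interaction, against 31.4% of all genes.

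**Figure D5:**
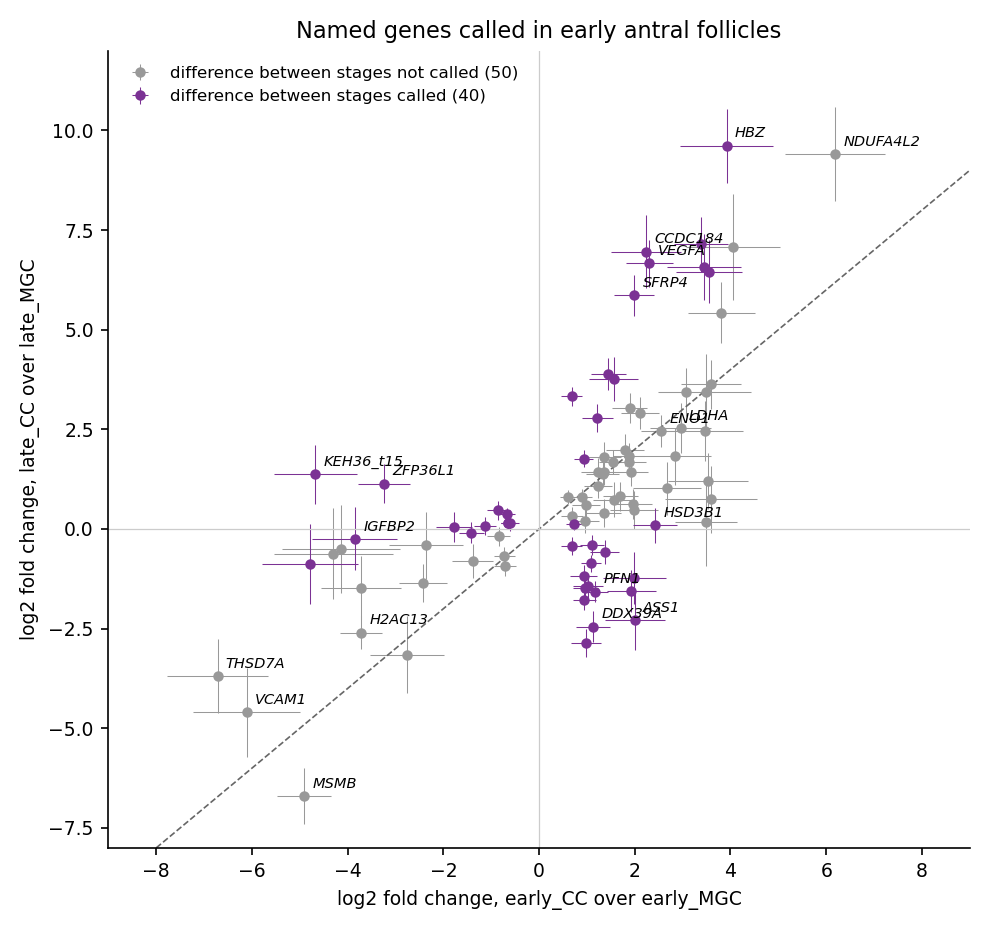
log2 fold change of cumulus over mural cells in late antral (vertical) against early antral follicles (horizontal), with SE as bars, for 90 named genes called in early follicles. Purple points (40) were called in the interaction of stage and cell type, grey points (50) were not, and the dashed line marks equal values. VEGFA, SFRP4 and HBZ lie above the line, PFN1 and ASS1 below 0 on the vertical axis. Some genes were named for their large interactions, so the purple count is partly set by that choice.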

How the data were processed

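RNA was sequenced from 24 libraries of cow granulosa cells. The authors deposited 1 table of read counts per gene, made with featureCounts 2.0.0 over exons of the Ensembl annotation of ARS-UCD1.2, per the file headers, which name no strand or multiple-mapping option; other deposited columns hold gene positions and exon lengths. HISAT2 2.1.0, fastp 0.20.0 and SAMtools 1.10 are named, without order or role, in the submitters' processing notes. Another 1 column of values, which belongs to no sample, was left out.

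Counts of all 24 libraries were fitted per group with edgeR 4.0.16 (R 4.3.3; TMM scaling, filterByExpr, robust quasi-likelihood F-test; 19 residual degrees of freedom), which left 14298 of 27607 genes. Contrasts were early_CC against early_MGC, late_CC against late_MGC, and the difference of these, with Benjamini-Hochberg adjustment over all genes and a threshold of 0.05. CPM are counts scaled to a library total of 1000000, without TMM, and errors of log2 fold changes are SE. Each CPM rests on the 8379801 to 31762400 counts of an early antral library; a group with 0 counts is limited to 3 counts over its libraries, for counting error only. The script was tested on simulated data. Alternatives used DESeq2 1.42.0, limma 3.58.1, other scaling, filters, offsets and sets of libraries.

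Gene symbols came from RefSeq (ARS-UCD2.0) by reciprocal best overlap of at least 0.5 of the joint span; 10252 of 12219 genes that averaged 1 CPM or more (83.9%) got one, and 857 would after a shift of 1000000 bases. Coordinates are those of the deposited table. BMPR1B had no match. Named genes were the 12 largest rises and 12 largest falls among called genes with a symbol, a mean of at least 5 CPM in the higher group and no overlap, 28 fixed genes, up to 4 called genes of lowest adjusted p per list, and the 5 largest interactions of each sign; the others are said to be chosen after their values were seen, as were all other called members of the lists and the list members given with a log2 fold change and adjusted p alone. The comparison, lists and fixed genes were chosen with earlier results of these data known. Some genes that these rules name are not reported here.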

Additional observations from a re-analysis of the deposited data

Results flagged for a closer look

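In 18 cases a single library lay apart from the other 4 of its group, with a gap to its neighbour above the 95% critical value of Dixon's test, among 254 group values examined, of which chance flags about 1 in 20. High libraries were CDH1 in early_MGC 5 (11.84 CPM, the others up to 6.831), GJA4 in early_MGC 4 (4.773 CPM, the others up to 3.357), KEH36_t15 in early_MGC 4 (97.02 CPM, the others up to 29.6), LATS1 in early_CC 1 (12.85 CPM, the others up to 9.287), MSMB in early_MGC 5 (96.53 CPM, the others up to 37.59) and NGFR in early_CC 4 (19.95 CPM, the others up to 5.005). They further were NPPC in early_CC 5 (1.124 CPM, the others up to 0.3062), PTCH1 in early_CC 3 (16.68 CPM, the others up to 10.07), SLC22A7 in early_CC 3 (21.73 CPM, the others up to 7.791), SLC2A1 in early_CC 3 (118.8 CPM, the others up to 66.44), ST6GALNAC5 in early_MGC 1 (2.099 CPM, the others up to 0.5595), VNN2 in early_CC 1 (42.66 CPM, the others up to 9.454) and WFDC2 in early_MGC 1 (26.98 CPM, the others up to 4.686). Low libraries were ALDOC in early_CC 2 (244.9 CPM, the others from 294.3), BMPR2 in early_CC 5 (18.59 CPM, the others from 22.33), CCNG1 in early_CC 5 (99.51 CPM, the others from 125.7), FST in early_CC 5 (3849 CPM, the others from 4541) and NPR2 in early_CC 4 (6.851 CPM, the others from 9.879). Early_CC 5 gave 4 of the cases and early_CC 3 gave 3.

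For 49 named genes the difference between cumulus and mural cells differed between early and late antral follicles in edgeR's interaction test (adjusted p under 0.05). They include genes named for having the largest interactions, so the count is partly fixed by that choice. The values are log2 interactions, late minus early, each over 5 libraries in each of 4 groups. Above 0, where cumulus cells gained on mural cells, were KEH36_t15 (6.05), HBZ (5.70), CCDC184 (4.72), ZFP36L1 (4.39), VEGFA (4.37), MGP (3.90), SFRP4 (3.86), ACTA1 (3.75), IGFBP2 (3.60), NRXN2 (3.13), SLC16A3 (2.90), SESN2 (2.64) and PDK1 (2.44). Smaller values above 0 were those of PTGES (2.39), ANKRD37 (2.20), TGFBR3 (1.83), MYO10 (1.74), PTCH1 (1.68), P4HA1 (1.56), SESN1 (1.33), LATS1 (1.31), NECTIN3 (1.22), CCNG1 (1.04), AFDN (0.83), SMAD5 (0.80), MDM2 (0.79) and FMNL2 (0.75). Below 0, where cumulus cells lost against mural cells, were LUM (-5.49), ASS1 (-4.28), GJA4 (-4.01), SDF2L1 (-3.84), DDX39A (-3.58), YIF1B (-3.49), TUBB2B (-3.21), PFN1 (-2.74), TUBA1B (-2.71) and ACAT2 (-2.46). Values nearer to 0 were those of FDPS (-2.45), MCM5 (-2.42), HSD3B1 (-2.34), TUBG1 (-2.11), AURKA (-1.95), TUBB (-1.95), CFL1 (-1.51), TOP2A (-1.39), CDK4 (-1.10), LDHB (-0.78) and ARPC1A (-0.61). NGFR, with a fitted value of -9.65, had 0 counts in late_CC, so that this value depends on the prior count and is no bound.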

How the results depend on the processing

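Of the 93 named genes called, 54 were called in all 22 alternatives of the early antral comparison and 39 were not in at least 1; of 34 not called, 14 were called in at least 1. The 1871 calls (958 higher in early_CC, 913 in early_MGC) became 3035 (1511 and 1524) with the 10 libraries alone and 3261 (1707 and 1554) with limma-voom and library weights. Leaving out 1 library gave 1222 to 1761 calls, 616 to 874 higher in early_CC and 606 to 903 in early_MGC; the lowest count was without early_MGC 5, and without early_MGC 4 there were 631 higher in early_CC. DESeq2 gave 2373 and RLE scaling 1891, with 45.7% of calls higher in early_CC against 51.2%. A replicate block, from numbers in the column headers that carry no stated pairing, gave 3405 calls (1799 and 1606), or 3236 (1720 and 1516) with length-corrected offsets; same-numbered libraries correlated at -0.105 to 0.242, and 2 of 5 best with their own number. The block ended the calls of ACTA1 (adjusted p = 0.0782, or 0.0808 with length-corrected offsets) and MVK (0.0578 and 0.0558) and of no other named gene, and LUM was also called in it (1.01e-05). The late comparison and the interaction kept their counts within 1.5 times in every alternative run (interaction 3826 to 5138 and late 4857 to 5891 with 1 library left out). The cause of these changes was not tested. Of the named genes, length-corrected offsets also ended the calls of CDK4, MCM5, TUBB2B, FMNL2, FDFT1, CCDC184, DDX39A and SDF2L1, RLE scaling those of GUCY1B1, MCM5, SDF2L1 and SESN2, and limma-voom those of ANKRD37 and FDFT1. Testing without a filter ended those of ACTR2, ARPC3, FNBP1L, GREM1, LMCD1, TGFB3, ANKRD37, CCDC184, CDK4, DDX39A, FDFT1, FMNL2, MCM5, SDF2L1 and TUBB2B. A minimum mean of 10 CPM ended those of GUCY1B1 and SESN2. Each of these calls was lost when some 1 library was left out as well.

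Sign changes were limited to genes that were not called. With length-corrected offsets CDH2 became 0.12, LDHB -0.04, MKI67 0.20 and TOP2A 0.02, and with the replicate block added to them 0.07, -0.03, 0.28 and 0.06. With library weights AMHR2 became 0.06 and GJA4 0.10, GJA4 0.03 without a filter, and NKD1 -0.01 where genes averaged 10 CPM or more. With the 3 libraries of lowest correlation left out AXIN2 became -0.03 and GJA4 0.21. Leaving out 1 library gave -0.05 to 0.16 for AXIN2, -0.17 to 0.07 for CDH2, -0.23 to 0.21 for GJA4, -0.23 to 0.09 for MKI67 and -0.08 to 0.20 for NKD1. Depth limits genes with means under 1 CPM such as NPPC, GLI1 and HAS2.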

Other observations

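Further groups of genes were counted between early antral cumulus and mural cells. They were formed by gene name after the values were seen, so their counts are descriptions. Of 37 tested genes of the proteasome, which degrades tagged proteins, 10 were called higher in early_CC (27%, against 6.7% of all genes) and 0 higher in early_MGC (median log2 fold change 0.55), and 7 (18.9%) were called without early_MGC 4. Their summed level was 12270 to 14360 CPM in early_CC and 5786 to 10970 in early_MGC. Of 74 mitochondrial ribosomal proteins, which the nucleus encodes, 13 were called higher in early_CC (17.6%; median 0.28), and without early_MGC 4 the count called was 5 (6.8%). The fit without early_MGC 4, here, above and below, called 1268 of all 14272 genes, 631 higher in early_CC and 637 higher in early_MGC. In the interaction with the late stage 64 of the 74 were called (86.5% against 31.4% of all genes). Their median log2 fold change in late follicles was -1.24, which is higher in mural cells. The cytosolic chaperonin, which folds actin and tubulin, had 4 of 9 called higher in early_CC (44.4%), or 1 (11.1%) without early_MGC 4, and the cytosolic tRNA ligases 4 of 16 (25%), or 2 (12.5%) without it.

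Replication-dependent histones went the other way. Of 26 tested, 5 were called higher in early_MGC (19.2% against 6.39% of all genes) and 0 higher in early_CC, again 5 without early_MGC 4, and 24 had log2 fold changes below 0 (median -0.94). Their sum was 327.4 to 439.5 CPM in early_CC and 868.2 to 1331 in early_MGC, which did not overlap. The linker histone H1-2 was at 77.5 ± 17.7 against 489.8 ± 109 CPM (-2.77 ± 0.31, adjusted p = 9.4e-06). Members share sequence, so reads may be split among them.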
